A study of Mus musculus with 4 samples.

Results

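The 10 genes described here are Nfe2l2, which encodes the transcription factor Nrf2, Keap1, which encodes the adaptor that holds Nrf2 in check, and the antioxidant genes Nqo1, Gclm, Gclc, Txnrd1, Srxn1, Gsr, Gpx4 and Prdx1. They were taken by gene symbol from the Nrf2 pathway, and no measured value is part of the rule that defines them. Of 53465 gene entries in the count tables these are 10, and all 10 were among the 15766 genes that passed a filter on low counts and entered the comparison of genotypes.

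RNA-Seq was performed on primary mouse oligodendroglial cells (OGCs) that had been kept for 3 days under differentiating conditions. OGCs from ctrl mice (Zfp276 flox/flox) were compared with OGCs from Zfp276cko mice (Sox10::Cre, Zfp276 flox/flox), so that both genotypes carry the floxed allele and the Cre transgene is present in Zfp276cko cells only. Zfp276 is a zinc finger protein of oligodendrocytes, and the comparison asks which transcripts depend on it in these cells. Each genotype was represented by 2 separate cell preparations, called replicates 1 and 2, with cells of 3 mice in each. Cells came from forebrains of pups at postnatal day 2 to 4 of either sex on a mixed C3H and C57Bl/6J background. They were shaken off mixed glial cultures and depleted of microglia before the mitogens PDGF-AA and bFGF were exchanged for CNTF. The study's methods also name a Rosa26 stopflox-tdTomato allele, which served to recognise Zfp276cko newborns. Sox10::Cre recombines in OGCs, while other cells that remain in such cultures are not targeted, and counts per gene sum over all of them. In such bulk samples fewer cells of a type and less RNA per cell cannot be told apart.

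Nrf2 is a basic leucine zipper transcription factor that pairs with small Maf proteins and activates genes through the antioxidant response element. In unstressed cells Keap1 presents Nrf2 to a Cul3 ubiquitin ligase, so that Nrf2 is degraded. Oxidants and electrophiles modify cysteines of Keap1, Nrf2 accumulates, and its target genes for glutathione synthesis, thiol reduction, NADPH supply and detoxification are transcribed. Nrf2 activity is therefore set largely at the protein level, which transcript counts do not measure. Oligodendrocytes have a high iron content and a high rate of lipid synthesis, and are known as cells that tolerate oxidative stress poorly.

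Total counts were 21311469 and 21068322 in the ctrl libraries and 25265366 and 26599809 in the Zfp276cko libraries. Levels are given as normalized counts, which are counts scaled by edgeR's TMM method to a common library size. Zfp276 itself was at 1632 and 2209 normalized counts in ctrl and at 485 and 498 in Zfp276cko cells, a reduction to 25.6% of ctrl. The ctrl libraries were less alike than the Zfp276cko libraries, with a median absolute log2 difference between replicates of 0.318 in ctrl and 0.0947 in Zfp276cko over all tested genes. Col1a1, a collagen gene of fibroblasts, was at 2498 in ctrl replicate 1 and between 48.5 and 73.5 in the other libraries. Csf1r, a receptor gene of microglia and macrophages, was at 11301 there and between 1833 and 3056 elsewhere. Other microglia genes differed in this. Itgam was also highest in ctrl replicate 1, at 2133 against 788 to 983. Aif1 was lowest there, at 1236, with 2744 as the next value. Gad1, a gene of inhibitory neurons, was at 77.6 in ctrl replicate 1, 1983 in ctrl replicate 2 and 912 and 993 in Zfp276cko cells. The 10 genes are therefore described with all 4 libraries and with each library left out. Mbp, a gene of myelinating oligodendrocytes, was abundant in all libraries with values from 86339 to 176280. The genes Col1a1, Csf1r, Itgam, Aif1 and Gad1 were chosen after their values were seen.

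Between genotypes, the largest difference among the 10 genes was that of Prdx1, a peroxiredoxin that reduces hydrogen peroxide, which reached 156% of ctrl. Nfe2l2 reached 129% and Srxn1, the enzyme that repairs overoxidized peroxiredoxins, 127% of ctrl. Txnrd1, Nqo1, Gsr and Keap1 had means of 107% to 117% of ctrl. Those of Gclc and Gpx4 were 97.0% and 95.6%, with Gclm close to them. The 2 Zfp276cko values exceeded both ctrl values for 6 of the 10 genes (Nfe2l2, Nqo1, Txnrd1, Srxn1, Gsr and Prdx1) and were under both for 0, as compared to 26.4% and 24.8% of all genes with a mean of at least 20 normalized counts. The median log2 fold change of the 10 genes was 0.20, and that of all tested genes was −0.0013.

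A gene was called when its adjusted p was at most 0.05, its log2 fold change was at least 0.6 in either direction and its mean was at least 20 normalized counts. With the quasi-likelihood test of edgeR and p adjusted by Benjamini-Hochberg over all tested genes, 0 of the 10 genes were called, and so were 0 of all tested genes (0%). Without the adjustment the same thresholds were met by 1 gene that was higher in Zfp276cko cells (Prdx1) and by 0 that were lower, where 5.11% and 3.01% of all tested genes met them. An unadjusted p of at most 0.05 at any fold change was reached by 2 genes that were higher (Prdx1 and Nfe2l2) and 0 that were lower, where 8.33% and 7.3% of all tested genes reached it. DESeq2, the tool of the study's methods, called 1 of the 10 genes higher (Prdx1) and 0 lower at an adjusted p of at most 0.05, against 3.02% and 2.27% of the genes it tested. With 2 libraries per genotype an exact permutation test of a single gene cannot give a two-sided p below 0.333, so that no such test is given.

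**Figure D1:**
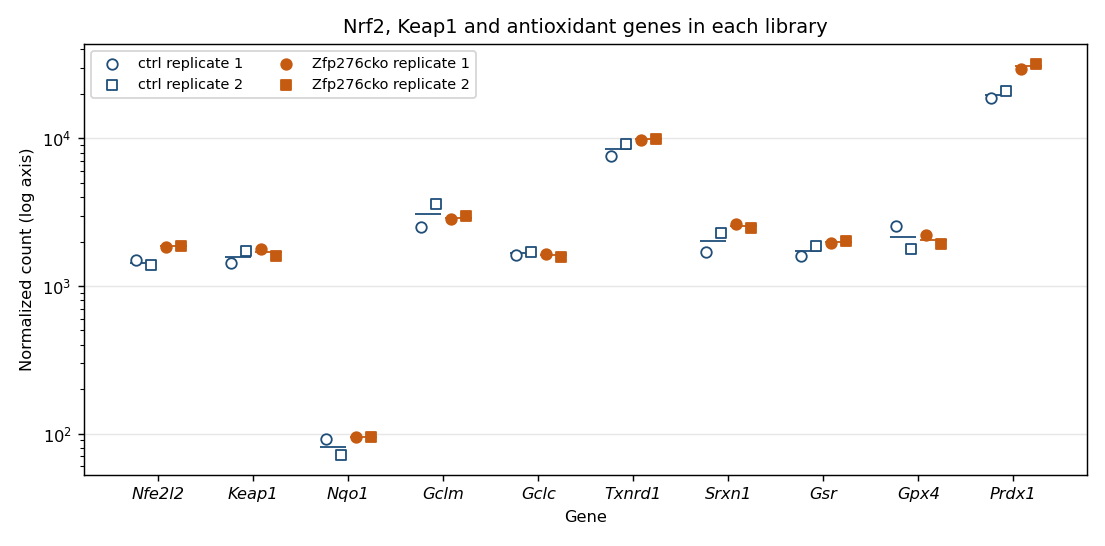
Normalized counts (log axis) of the 10 genes in each of the 4 libraries, with open blue symbols for ctrl, filled orange symbols for Zfp276cko, circles for replicate 1, squares for replicate 2 and a line at each genotype's mean. Prdx1 is the gene in which the genotypes stand furthest apart, at 18714 and 20888 against 29731 and 32111, while for Keap1, Gclm, Gclc and Gpx4 the genotypes overlap.

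Nfe2l2 (mm10 chr2:75675513-75704641, minus strand, 5 exons in its longest transcript) is the gene for Nrf2. It had 1492 and 1390 normalized counts in ctrl, against 1848 and 1872 in Zfp276cko cells, or 1441 ± 72.4 and 1860 ± 17.0 (SD, n = 2 each). The Zfp276cko values exceeded both ctrl values by more than the replicates of either genotype differed. The log2 fold change was 0.37 ± 0.09 (SE) with a 95% interval from 0.13 to 0.61, and the adjusted p was 0.199 in edgeR and 0.243 in DESeq2. Without each library in turn it ranged from 0.30 to 0.42. Nfe2l2 was at position 985 of 15766 when genes were ordered by their unadjusted p.

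Keap1 (mm10 chr9:21229730-21239361, minus strand) was at 1424 and 1734 in ctrl and at 1790 and 1605 in Zfp276cko. Its genotypes overlapped, and the ctrl replicates differed by more than the genotype means of 1579 ± 219 and 1698 ± 131 (SD, n = 2 each). Its fitted log2 fold change was 0.10 with an interval from −0.27 to 0.48 (edgeR adjusted p = 0.763) and turned to −0.03 when ctrl replicate 1 was left out, and to 0.24 when ctrl replicate 2 was. In counts of a library, Nfe2l2 stood to Keap1 as 1.05 and 0.801 in ctrl and as 1.03 and 1.17 in Zfp276cko cells, so that this ratio overlapped between genotypes. Such ratios are not corrected for gene length and serve to compare libraries. An antisense gene, Gm16754, overlaps 510 bp of the exons of Keap1 but had only 1 to 4 counts per library.

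Glutathione is made by glutamate-cysteine ligase, with Gclc as its catalytic and Gclm as its modifier subunit, and by glutathione synthetase. Gclc (mm10 chr9:77754535-77794485, plus strand) had 1610 and 1710 normalized counts in ctrl, against 1658 and 1563 in Zfp276cko cells. All 4 values lay within a narrow range, the genotypes overlapped, and the log2 fold change was −0.04 with an interval from −0.29 to 0.20 (edgeR adjusted p = 0.856). Of the 10 genes it had the fold change nearest to 0.

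Gclm (mm10 chr3:122245557-122270732, plus strand) was at 2496 and 3610 in ctrl and at 2822 and 2979 in Zfp276cko. Both Zfp276cko values lay between the ctrl values, with means of 3053 ± 788 and 2900 ± 111 (SD, n = 2 each). The log2 fold change was −0.07 with an interval from −0.62 to 0.48 (edgeR adjusted p = 0.893), was −0.31 without ctrl replicate 1 (adjusted p = 0.00249) and was 0.20 without ctrl replicate 2 (adjusted p = 0.0444). These edgeR fits assume that the lone ctrl library varies like the close Zfp276cko pair. The direction of Gclm thus depended on which ctrl library was used. Gclm stood to Gclc as 1.55 and 2.11 in ctrl and as 1.70 and 1.91 in Zfp276cko cells. The overlapping transcripts Gm17494 and Gm6061 had between 1 and 19 counts per library.

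Gsr (mm10 chr8:33652523-33698163, plus strand), the reductase that returns oxidized glutathione to its thiol form at the expense of NADPH, was at 1589 and 1869 in ctrl and at 1955 and 2016 in Zfp276cko. The genotypes did not overlap, but the ctrl values differed from each other by more than the higher ctrl value differed from the Zfp276cko values. The log2 fold change was 0.20 with an interval from −0.11 to 0.51 (edgeR adjusted p = 0.478), and it ranged from 0.088 to 0.31 without each library in turn.

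Gpx4 (mm10 chr10:80047166-80056439, plus strand), the selenoprotein that reduces lipid hydroperoxides in membranes and blocks ferroptosis, was at 2535 and 1771 in ctrl and at 2201 and 1914 in Zfp276cko. Both Zfp276cko values again lay between the ctrl values. Gpx4 has pseudogene copies, with Gpx4-ps2 as an entry of its own in the tables, and reads that fit both equally well are missing from counts of uniquely mapped reads. Its fitted log2 fold change was −0.07 with an interval from −0.63 to 0.50 (edgeR adjusted p = 0.911). It was 0.22 when ctrl replicate 1 was left out and −0.31 when ctrl replicate 2 was. Gsr stood to Gpx4 as 0.627 and 1.06 in ctrl and as 0.888 and 1.05 in Zfp276cko cells.

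Prdx1 (mm10 chr4:116685544-116700822, plus strand) encodes an abundant cytosolic peroxiredoxin that thioredoxin keeps reduced. It had 18714 and 20888 normalized counts in ctrl, against 29731 and 32111 in Zfp276cko cells, with means of 19801 ± 1537 and 30921 ± 1683 (SD, n = 2 each). The genotypes were separated by several times the difference between replicates. The log2 fold change was 0.64 ± 0.13 (SE) with an interval from 0.28 to 1.00 and an edgeR adjusted p of 0.176. DESeq2 estimated 0.63 ± 0.15 with an adjusted p of 0.00153, so that the call of Prdx1 rests on the choice of the test. Without each library in turn the log2 fold change ranged from 0.57 to 0.71 and stayed below the threshold of 0.6 without ctrl replicate 1 and without Zfp276cko replicate 2.

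Together the 10 genes took 0.157% and 0.190% of all counts in ctrl, against 0.241% and 0.250% in Zfp276cko cells. Prdx1 held 47.6% and 46.9% of these counts in ctrl, against 54.5% and 56.8% in Zfp276cko cells. Prdx1 stood to its relative Prdx2 as 2.03 and 1.67 in ctrl and as 3.01 and 3.34 in Zfp276cko cells. Prdx2 itself was at 9224 and 12516 in ctrl and at 9893 and 9623 in Zfp276cko, where the genotypes overlapped.

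Srxn1 (mm10 chr2:152105516-152111376, plus strand), the sulfiredoxin that reactivates overoxidized peroxiredoxins, was at 1701 and 2302 in ctrl and at 2609 and 2485 in Zfp276cko. Its genotypes did not overlap, with means of 2001 ± 425 and 2547 ± 87.8 (SD, n = 2 each), but the ctrl replicates differed by more than the genotype means. Its fitted log2 fold change was 0.35 ± 0.17 (SE) with an interval from −0.12 to 0.81 (edgeR adjusted p = 0.422). It was 0.15 when ctrl replicate 1 was left out and 0.57 when ctrl replicate 2 was.

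Txnrd1 (mm10 chr10:82833951-82897712, plus strand), the cytosolic thioredoxin reductase, was at 7648 and 9189 in ctrl and at 9816 and 9908 in Zfp276cko. The Zfp276cko values were close to each other and to ctrl replicate 2. Its fitted log2 fold change was 0.23 with an interval from −0.13 to 0.59 (edgeR adjusted p = 0.483), and it was 0.10 or 0.35 when ctrl replicate 1 or ctrl replicate 2 was left out. Txnrd1 stood to its substrate Txn1 as 2.86 and 3.49 in ctrl and as 3.17 and 3.29 in Zfp276cko cells, with both Zfp276cko values between the ctrl values.

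Nqo1 (mm10 chr8:107388225-107403206, minus strand) encodes the quinone reductase that is often used as a readout of Nrf2 activity. It had the fewest counts of the 10 genes, with 78 and 64 counts in the ctrl libraries and 105 and 111 in the Zfp276cko libraries before normalization. After normalization these were 91.7 and 71.3 in ctrl as against 94.1 and 94.5 in Zfp276cko. The higher ctrl value and the Zfp276cko values differed by less than the counting error of 9.49% to 12.5% per library. The log2 fold change of 0.21 had an interval from −0.48 to 0.90 (edgeR adjusted p = 0.742), the widest of the 10 genes. It was 0.40 when ctrl replicate 1 was left out and 0.026 when ctrl replicate 2 was. A difference in Nqo1 of the size seen for Prdx1 lies within the interval.

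**Figure D2:**
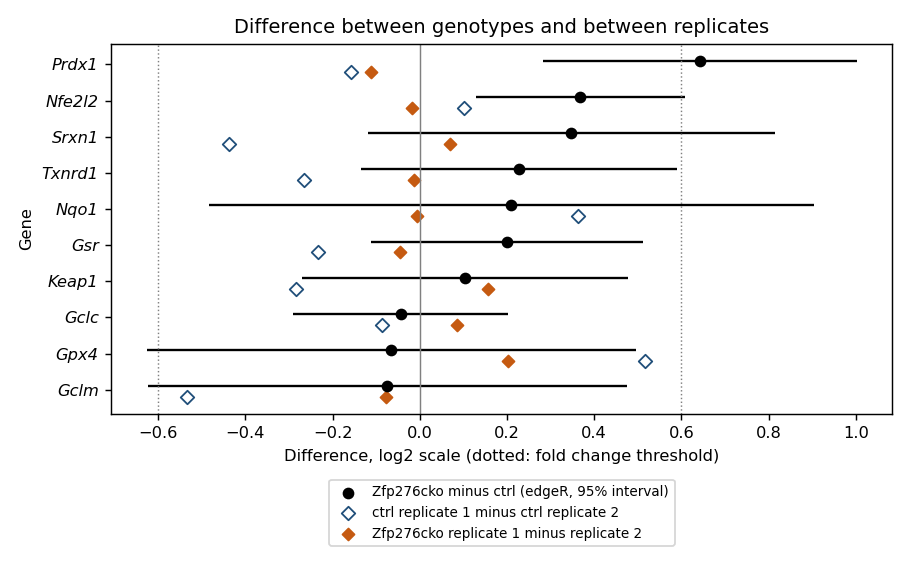
Log2 fold change of each of the 10 genes between genotypes (black, edgeR estimate with its 95% interval) beside the log2 difference between the 2 ctrl replicates (open blue diamonds) and the 2 Zfp276cko replicates (filled orange diamonds), with dotted lines at the fold change threshold of 0.6. The intervals of Prdx1 and Nfe2l2 lie above 0, and the other 8 include 0.

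The spread between replicates differed between genotypes for these genes, as it did over all tested genes. The median absolute log2 difference was 0.27 for the ctrl pair and 0.074 for the Zfp276cko pair, beside 0.318 and 0.0947 over all tested genes. The difference was larger in ctrl for 10 of 10 genes, but by little for Gclc (0.087 in ctrl and 0.085 in Zfp276cko). In 8 of 10 genes the ctrl replicates differed by more than the fitted change between genotypes, the exceptions being Nfe2l2 and Prdx1. Ctrl replicate 2 was above ctrl replicate 1 in 7 of 10 genes, and below it for Nfe2l2, Nqo1 and Gpx4. For these counts of genes the share over all tested genes was not determined, so that they are a description only.

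**Figure D3:**
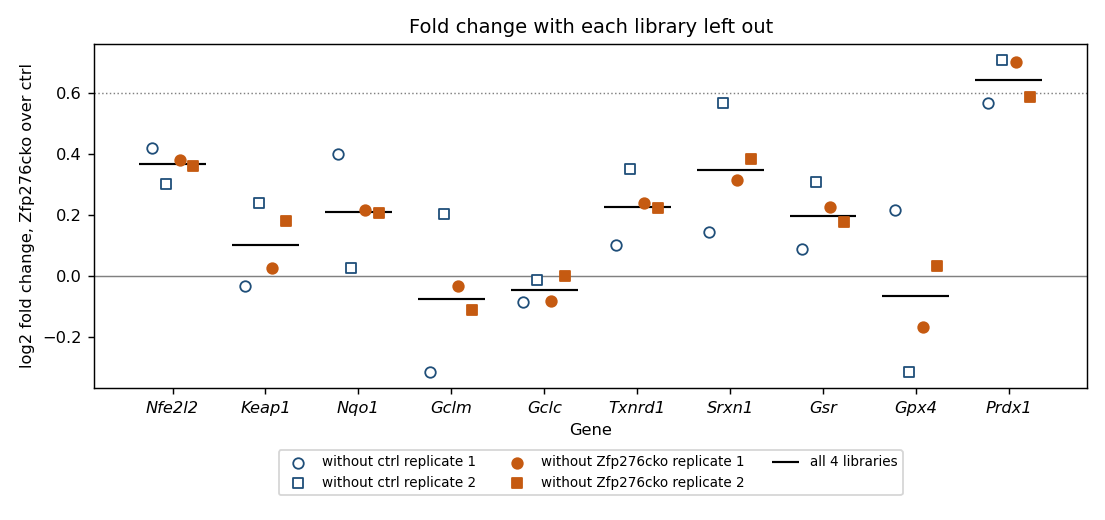
Log2 fold change of each of the 10 genes after 1 library was left out (open blue: a ctrl library, filled orange: a Zfp276cko library, circles: replicate 1, squares: replicate 2), with a black line at the value from all 4 libraries. Prdx1, Nfe2l2, Srxn1, Txnrd1, Gsr and Nqo1 stay above 0 in each case, while Keap1, Gclm, Gclc and Gpx4 cross 0.

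Per kilobase of exon, Prdx1 was the most abundant of the 10 genes with 6507 normalized counts in ctrl, against 10161 in Zfp276cko. Gpx4 and Txnrd1 came next in ctrl with 1249 and 1188 per kilobase, followed by Srxn1 (710) and Gsr (628), by Gclm (485) and Gclc (441), and by Nfe2l2 (380) and Keap1 (337). Within each of these 4 pairs of neighbours the ctrl libraries overlapped, and between the pairs they did not, as for Gsr at 577 to 679 and Gclm at 397 to 574 per kilobase. In Zfp276cko cells Nfe2l2, at 490 per kilobase, stood above Gclm and Gclc, at 461 and 428. Nqo1 was lowest with 52.5 per kilobase in ctrl and 60.7 in Zfp276cko cells.

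The antioxidant response element has the core TGACNNNGC, and a variant with G as the fourth base reads TGAGNNNGC. Both were searched on both strands in the 250 bases upstream of the RefSeq starts (GRCm38.p6) of the 8 members that matched an entry, which had 13 promoters. Gclc and Gsr are named only. A match was found in promoters of 5 members (Nfe2l2, Gclm, Txnrd1, Srxn1 and Prdx1), while Keap1, Nqo1 and Gpx4 had none in this window. Over all genes with a promoter, 25.7% of 27025 had a match to either motif. Among all 32851 RefSeq promoters, 10.2% held TGACNNNGC, 14.4% held TGAGNNNGC and 23.0% held either. The matches are shown with up to 20 bases at each side, in the direction of the motif and with the motif in capitals. They are matches of letters only, and whether Nrf2 acts through them was not tested.
Prdx1 (chr4:116685446-116685494, minus strand, motif 124 bases upstream of the start): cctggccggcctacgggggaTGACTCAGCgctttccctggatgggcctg
Nfe2l2 (chr2:75704875-75704913, minus strand, 231 bases upstream): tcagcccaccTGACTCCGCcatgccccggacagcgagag
Srxn1 (chr2:152105459-152105507, plus strand, 36 bases upstream): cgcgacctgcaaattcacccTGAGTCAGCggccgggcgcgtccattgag
Srxn1 (chr2:152105346-152105394, minus strand, 149 bases upstream): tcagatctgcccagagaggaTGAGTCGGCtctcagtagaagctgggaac
Txnrd1 (chr10:82859094-82859142, minus strand, 83 bases upstream of the second of 3 starts): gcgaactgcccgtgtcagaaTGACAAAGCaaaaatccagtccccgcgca
Gclm (chr3:122245403-122245451, minus strand, 125 bases upstream): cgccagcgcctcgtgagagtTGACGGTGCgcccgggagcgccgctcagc

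The motif of Prdx1 and the motif of Srxn1 nearest to its start also hold a 7-base AP-1 element (TGACTCA or TGAGTCA) within the same letters. Matches were present in promoters of genes whose libraries separated by genotype (Prdx1, Nfe2l2, Srxn1 and Txnrd1) and in that of Gclm, whose genotypes overlapped. Nqo1, whose libraries also separated, had none in this window, nor had Keap1 and Gpx4, whose genotypes overlapped. Gsr, which separated, and Gclc, which overlapped, were not searched. Binding of Nrf2 to these promoters was not measured here.

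The other genes of the pathway comprised 112 genes in lists of Nrf2 regulators, glutathione enzymes, the thioredoxin system, detoxification and haem genes, NADPH supply, superoxide and peroxide enzymes, selenoproteins and lipid peroxidation genes. Of these, 104 were tested and 103 had a mean of at least 20 normalized counts. The genes Gsta1, Gsta2, Gstm6, Gstp2, Gstt3, Mgst2, Alox12 and Alox15 were too low to be tested. By edgeR's adjusted p, 0 of the 104 tested genes were called. An unadjusted p of at most 0.05 at any fold change was reached by 17 that were higher and 7 that were lower. Over all tested genes 8.33% and 7.3% reached it. An unadjusted p with the same thresholds was met by 7 genes that were higher in Zfp276cko cells (Slc7a11, Txnip, Gstm4, Gch1, Gsta4, Gpx1 and Prdx5, of which Gstm4 and Gsta4 are glutathione S-transferases) and 2 that were lower (Secisbp2l and Alox5), that is by 7 and 2 of 104 beside the 5.11% and 3.01% of all tested genes given above. DESeq2 called 5 higher (Slc7a11, Txnip, Gch1, Gsta4 and Gpx1) and 2 lower (Secisbp2l and Alox5), beside 3.02% and 2.27% of all genes. The counts that met the fold change threshold are in each direction close to the share over all genes. At any fold change the 17 higher genes were above their share and the 7 lower genes near it, which was not tested. The 2 Zfp276cko values exceeded both ctrl values for 40 of 103 genes and were under both for 24, beside 26.4% and 24.8% of all genes, which are also the shares against which the counts of each list below are to be read. The median log2 fold change was 0.073, beside −0.0013 for all tested genes.

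**Figure D4:**
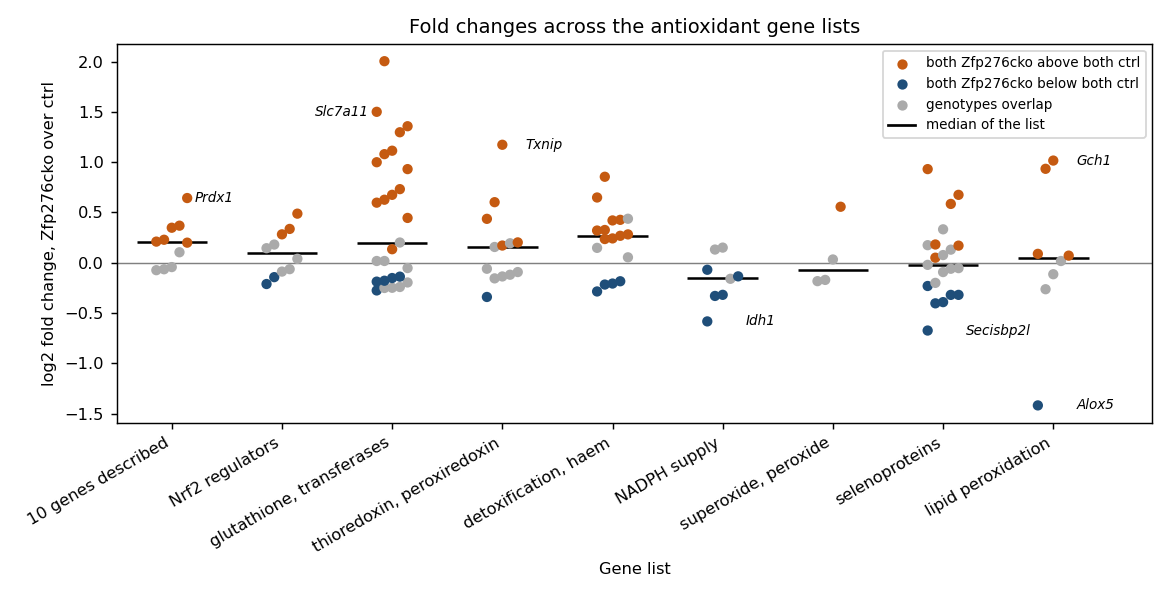
Log2 fold change of each tested gene in the lists of the antioxidant pathway (orange: both Zfp276cko libraries above both ctrl libraries, blue: both below, grey: overlap), with a black line at each list's median. The list of NADPH supply is the 1 list with 0 orange points, and points at both ends of the scale, such as Slc7a11 and Alox5, lie in different lists. The highest point is Gstt2, at a log2 fold change of 2.00 and a mean of only 11.7 normalized counts.

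Among regulators of Nrf2, both Zfp276cko libraries were above both ctrl libraries for 3 of 10 genes and below for 2, with a median log2 fold change of 0.09. Sqstm1, an autophagy receptor that sequesters Keap1, was at 9858 and 12915 in ctrl and at 16391 and 15544 in Zfp276cko, which is a log2 fold change of 0.49 (edgeR adjusted p = 0.309) that was 0.31 when ctrl replicate 1 was left out and 0.68 when ctrl replicate 2 was. Bach1, a repressor that competes with Nrf2 at the same elements, had a log2 fold change of 0.34, and Mafk, a small Maf partner, of 0.28. None of these 3 genes was called by either tool.

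In the glutathione list 13 of 26 genes were higher in both Zfp276cko libraries and 5 were lower, with a median of 0.20. Slc7a11, the transport subunit of the cystine-glutamate antiporter that supplies cysteine for glutathione, had the largest fold change among pathway genes with a mean of at least 20 normalized counts. It was at 1545 and 2237 in ctrl and at 5269 and 5435 in Zfp276cko, or 283% of ctrl. Its log2 fold change was 1.50 ± 0.21 (SE), with an adjusted p of 0.123 in edgeR and 8.89e-08 in DESeq2, and it ranged from 1.26 to 1.78 without each library in turn. Slc3a2, the chain that carries Slc7a11 to the membrane, was at 7098 and 4026 in ctrl and at 6434 and 6351 in Zfp276cko. The genotypes of Slc3a2 overlapped, and Slc7a11 stood to it as 0.218 and 0.556 in ctrl and as 0.819 and 0.856 in Zfp276cko cells.

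Gpx1, the main cytosolic glutathione peroxidase, was at 3183 and 2931 in ctrl and at 5018 and 4742 in Zfp276cko. Its log2 fold change was 0.67 ± 0.10 (SE), with an adjusted p of 0.128 in edgeR and 0.000953 in DESeq2. Its genotypes did not overlap, whereas those of Gpx4 did. Gstm1, a glutathione S-transferase from a family of similar genes between which reads may be split, was at 2076 and 2290 in ctrl and at 3491 and 3112 in Zfp276cko. Its log2 fold change of 0.597 was below the threshold of 0.6, with an adjusted p of 0.162 in edgeR and 0.0139 in DESeq2. Upstream sequences of some other pathway genes were also searched, and those of Gpx1, Txnip, Prdx5, Sod2 and Gch1 held 0 matches. That of Slc7a11 (chr3:50443682-50443730, plus strand, 88 bases upstream of the start) held 1 match, where 25.7% of all genes held a match. It is shown because this gene differed most:
Slc7a11: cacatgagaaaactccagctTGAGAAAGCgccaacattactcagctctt

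In the thioredoxin list 5 of 13 genes were higher in both Zfp276cko libraries and 1 was lower, with a median of 0.16. Txnip, which binds and inhibits thioredoxin, was at 1161 and 1282 in ctrl and at 2647 and 2860 in Zfp276cko, with a log2 fold change of 1.17 ± 0.10 (SE) and an adjusted p of 0.0962 in edgeR and 9.66e-10 in DESeq2. The peroxiredoxin genes Prdx5 (log2 fold change 0.60) and Prdx6 (0.44) were also higher in both Zfp276cko libraries, with edgeR adjusted p of 0.168 and 0.212. Their values were 4353 and 3731 against 6134 and 6134 for Prdx5 and 3753 and 3412 against 4605 and 5089 for Prdx6.

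In the list of detoxification and haem genes, 10 of 17 were higher and 4 lower, with a median of 0.27 and a log2 fold change of 0.43 for Esd (esterase D), 0.33 for Cbr1 (carbonyl reductase) and 0.28 for Hmox2 (constitutive haem oxygenase). Hmox1, the inducible haem oxygenase and a classical Nrf2 target that Bach1 represses, was at 10425 and 20425 in ctrl and at 27826 and 27961 in Zfp276cko. The genotypes did not overlap, but the ctrl values differed from each other by more than ctrl replicate 2 did from the Zfp276cko values (log2 fold change 0.85, edgeR adjusted p = 0.355, DESeq2 adjusted p = 0.146). Leaving out ctrl replicate 1 or 2 gave 0.45 or 1.41. Hmox1 was chosen after its values were seen.

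Of 8 enzymes of NADPH supply, 0 were higher and 5 lower in both Zfp276cko libraries, with a median of −0.15, beside 26.4% higher and 24.8% lower over all genes. Idh1, the cytosolic isocitrate dehydrogenase, was at 8850 and 9719 in ctrl and at 6268 and 6122 in Zfp276cko, which is a log2 fold change of −0.58 (adjusted p of 0.161 in edgeR and 0.00128 in DESeq2) that missed the fold change threshold. Tkt (−0.33), a transketolase of the pentose phosphate pathway, and Me1 (−0.32), the malic enzyme and a known Nrf2 target, were lower in both Zfp276cko libraries, at 7834 and 6578 against 5931 and 5530 for Tkt and 3629 and 2763 against 2481 and 2642 for Me1. For Me1 the ctrl replicates differed by more than the genotype means. Leaving out ctrl replicate 1 or 2 gave −0.11 or −0.52 for Me1 and −0.20 or −0.46 for Tkt. These enzymes also supply NADPH for the synthesis of lipids.

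Of 4 superoxide and peroxide enzymes, Sod2, the mitochondrial superoxide dismutase, was higher in both Zfp276cko libraries, with 4307 and 4324 in ctrl as against 6467 and 6225 in Zfp276cko (log2 fold change 0.56, adjusted p of 0.139 in edgeR and 0.00291 in DESeq2, below the fold change threshold). Its cytosolic counterpart Sod1 overlapped between genotypes at 3175 and 3751 against 3723 and 3360, and so did catalase (Cat) at 6710 and 5247 against 5238 and 5381.

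Of 21 selenoprotein genes 6 were higher and 6 lower in both Zfp276cko libraries, close to the shares of 26.4% and 24.8% over all genes, with a median of −0.02. Gpx1, which is also in this list, was higher. Secisbp2l, which encodes a paralog of the selenocysteine insertion factor, was at 8454 and 9555 in ctrl and at 5443 and 5841 in Zfp276cko (log2 fold change −0.67, adjusted p of 0.151 in edgeR and 0.000611 in DESeq2). Selenos, a selenoprotein of the endoplasmic reticulum, had a log2 fold change of −0.39 (edgeR adjusted p = 0.209).

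Of 8 lipid peroxidation genes 4 were higher and 1 was lower in both Zfp276cko libraries. Alox5, a lipoxygenase, was at 455 and 427 in ctrl and at 159 and 171 in Zfp276cko, 37.4% of ctrl (log2 fold change −1.42 ± 0.16 (SE), adjusted p of 0.111 in edgeR and 3.44e-07 in DESeq2). Gch1, the first enzyme of tetrahydrobiopterin synthesis, was at 242 and 292 in ctrl and at 538 and 543 in Zfp276cko (log2 fold change 1.02, adjusted p of 0.136 in edgeR and 0.000793 in DESeq2). Aifm2, the ubiquinone reductase that limits ferroptosis beside Gpx4, was at 199 and 82.5 in ctrl and at 270 and 267 in Zfp276cko. Its log2 fold change of 0.93 was 1.70 when ctrl replicate 1 was left out and 0.42 when ctrl replicate 2 was.

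**Figure D5:**
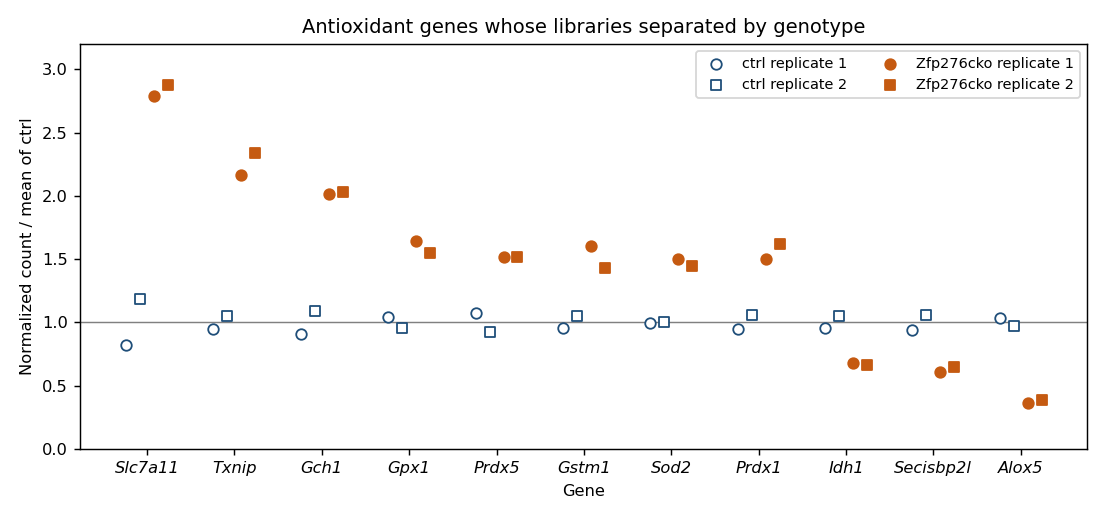
Normalized counts of Prdx1 and of 10 other genes of the antioxidant pathway in each library, divided by the mean of the 2 ctrl libraries (blue: ctrl, orange: Zfp276cko, circles: replicate 1, squares: replicate 2). The genes were picked from those whose genotypes did not overlap, so that the separation in each of them follows from the choice. Of these genes 3 (Idh1, Secisbp2l and Alox5) lie below ctrl.

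Markers of cell types and states differed between libraries as well. Myelin and oligodendrocyte genes summed to 373870 and 482600 normalized counts in ctrl and to 255100 and 260090 in Zfp276cko cells, with 13 of 15 genes lower in both Zfp276cko libraries. Oligodendrocyte precursor genes summed to 156160 to 222100 in ctrl and 122080 to 123410 in Zfp276cko cells, with 6 of 10 lower and 1 higher. The largest part of this sum was Gpr17, at 112330 and 69108 in ctrl and at 42887 and 40704 in Zfp276cko. Pdgfra, the defining precursor marker, overlapped between genotypes, at 9954 and 15355 in ctrl and at 11730 and 11452 in Zfp276cko. Interferon response genes summed to 16737 and 6901 in ctrl and to 114630 and 112590 in Zfp276cko cells, with 20 of 20 higher in both. Microglia genes summed to 62168 and 33768 in ctrl and to 50209 and 51800 in Zfp276cko cells, with 4 of 14 higher in both Zfp276cko libraries and 0 lower, among them Ptprc and Cd68. The sums of astrocyte genes (45597 to 48475 in ctrl and 42481 to 44778 in Zfp276cko cells, 2 of 10 tested genes higher and 2 lower in both) differed less between libraries. Single astrocyte genes differed between the ctrl replicates in opposite directions, with Gfap at 17474 and 8384 and Aqp4 at 1821 and 3782. The median absolute log2 difference between ctrl replicates was 1.04 for astrocyte genes, beside 0.318 over all tested genes. Neuron genes summed to 15821 and 24836 in ctrl as against 15526 and 16958 in Zfp276cko, with 0 of 9 tested genes higher and 2 lower. Most of this sum was Map2, at 14474 in ctrl replicate 1, and the sum does not show the other neuron genes. Syt1 was at 32.9 in ctrl replicate 1 and at 339 to 866 elsewhere, and Snap25 at 35.3 and at 296 to 479. Rbfox3, Stmn2, Tubb3 and Gad1 were also lowest in ctrl replicate 1, while Map2, Nefl and Nefm were not. Fibroblast and vessel genes summed to 9009 and 556 in ctrl and 452 to 487 in Zfp276cko cells, with 1 higher and 1 lower. The defining markers Mbp, Pdgfra, Cx3cr1, Gfap, Rbfox3 and Col1a1 were above 0 in each library, and Gjb6 and Cldn5 were at 0 in all libraries. Prdx1, Nfe2l2, Slc7a11, Txnip, Gpx1 and Sod2 were higher in the same 2 libraries in which the interferon response genes were higher and the oligodendrocyte genes lower. The part of these cell type and state markers in the results for the antioxidant genes was not tested.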

How the data were processed

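RNA-Seq libraries were made by the authors with a stranded TruSeq mRNA kit and sequenced single-end. Reads were mapped to mm10 with STAR 2.5.4a, and uniquely mapped reads were counted per gene. For the counting, the study's methods name HTSeq on Ensembl genes, while the submitters' processing notes name featureCounts 1.5.1. The strand setting is not given in the sources used here. The deposited files hold counts per gene symbol as whole numbers without normalization. Total counts per library ranged from 21068322 to 26599809.

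The 10 genes and the lists were chosen with earlier results of these data known, so that lists are described by counts and medians without a test. Genes were filtered with filterByExpr, normalized with TMM and compared with the quasi-likelihood test of edgeR 4.0.16 (limma 3.58.1, R 4.3.3) on all 4 libraries with Benjamini-Hochberg adjustment over 15766 genes. DESeq2 1.42.0, used by the study, was an alternative. Others were its size factors within edgeR, omission of the filter, a minimum of 10 counts per library, a replicate block, an unadjusted p, no fold change threshold, and leaving out each library. Normalized counts were scaled to the geometric mean of the effective library sizes. SEs were derived from the F statistic. Intervals and counting errors cover these libraries only. The scripts were tested on simulated data. From each pathway list, up to 3 genes were named that had the smallest unadjusted p, did not overlap between genotypes and had a mean of at least 20. Other named genes were partners of a member in a ratio (Prdx2, Txn1, Slc3a2), counterparts of a named enzyme (Sod1, Cat) and genes chosen after their values were seen. Gene positions are from GENCODE on mm10, and upstream sequences from RefSeq on GRCm38.p6.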

Additional observations from a re-analysis of the deposited data

How the results depend on the processing

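Over 15766 genes the differences between replicates 1 and 2 in ctrl and in Zfp276cko cells had a correlation of −0.00504. This gave no sign that the replicate numbers pair the samples, but such a correlation cannot exclude a pairing. With a replicate block in edgeR, 0 of the 10 genes and 0 of the other pathway genes were called, the median log2 fold change of the 10 genes was 0.21, and the block changed no call. The count of 10 genes called was 0 in edgeR, 1 with DESeq2, 1 with an unadjusted p and 0 to 1 when each library was left out, with Prdx1 as the gene in each case. The count of other pathway genes called was 0 in edgeR, 7 with DESeq2, 9 with an unadjusted p and 0 to 21 when each library was left out, with 21 without ctrl replicate 1 and 15 without ctrl replicate 2. In these last 2 fits the lone ctrl library is assumed to vary like the Zfp276cko pair, and without a Zfp276cko library 0 genes were called. Without ctrl replicate 1 or ctrl replicate 2, many genes outside the pathway were called as well. The counts of pathway genes called in these fits are therefore not a result about the pathway. Whether they exceeded the share over all genes was not tested. The median log2 fold change of the 10 genes was 0.20 and ranged from 0.12 to 0.27 when each library was left out. The direction reversed for Keap1 without ctrl replicate 1 (−0.030), for Gclm without ctrl replicate 2 (0.20), for Gclc without Zfp276cko replicate 2 (0.00052) and for Gpx4 without ctrl replicate 1 (0.22) and without Zfp276cko replicate 2 (0.034), and the cause was not tested. Over the 4 libraries left out, these values ranged from −0.030 to 0.24 for Keap1, from −0.31 to 0.20 for Gclm, from −0.085 to 0.00052 for Gclc and from −0.31 to 0.22 for Gpx4. Of 90 single-gene values under alternatives, 83 kept their direction and their side of the threshold, 5 reversed and 2 passed the threshold that they had missed (Prdx1). Nqo1 had 64 to 111 counts per library, and the part of depth in the width of its interval was not tested.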
